A study of Mus musculus with 3 samples.

Results

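Wells sorted from Cnga3-/- mouse retina were compared with wells sorted from wildtype retina. The Cnga3-/- wells come from 1 plate whose library is named Cnga3-GFP, and the wildtype wells from 1 plate whose library is named Chrnb4-GFP, a reporter in which the Chrnb4 gene drives green fluorescent protein. The labels do not say which reporter the Cnga3-/- line carried. Cells of both lines were labelled GFP-positive cones of postnatal day 12, were freed with papain, stained with a viability dye and sorted into 96-well plates. No other allele or treatment is named for either line. Column names carry a further tag, pup-P08 in the Cnga3-/- plate and pup-P11 in the wildtype plate, which the labels do not explain. A plate of the mutant line Pde6ccpfl1, set beside these near the end of the results, carries the tag pup-P10. The samples of these plates are all labelled postnatal day 12, and whether the tag is an age is not stated. A difference in age between the plates therefore cannot be told apart from genotype either. The number of mice per plate is not given in the sources used here. Wells were taken by the plate name in their column and kept with at least 500 genes counted and no more than 30% of counts from the mitochondrial genome. This left 70 of 76 Cnga3-/- wells and 52 of 61 wildtype wells, 122 of the 183 kept wells of the series, and each well left out had too few genes. With 1 plate per genotype, genotype and plate cannot be told apart, wells of a plate are not replicates, and every difference below is a description of 2 libraries with no test.

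Cones are the photoreceptors of daylight and colour vision. Light activates a cone opsin, the opsin activates transducin (Gnat2 with Gnb3 and Gngt2), and transducin activates a phosphodiesterase (Pde6c with its inhibitory subunit Pde6h) that breaks down cGMP. The fall in cGMP closes the cyclic nucleotide-gated channel of the outer segment, built from Cnga3 and Cngb3, so a cone without Cnga3 lacks the channel that carries its light response. Loss of this channel is known to cause achromatopsia and a slow loss of cones. The series is about how cones migrate within normal and degenerating retina, and the nuclei of young cones are known to move between layers with the help of microtubule motors and the proteins that link the nucleus to the cytoskeleton.

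The kept wells held 335499 counts in the Cnga3-/- library and 273080 in the wildtype library. A Cnga3-/- well held 1134 to 16935 counts (median 4056.5) and a wildtype well 1061 to 11671 (median 4895). The median number of genes per well was 1473.5 and 1829 in the same order. Mitochondrially encoded genes took at most 0.867% of the counts of any well. The median variance over mean of a gene, with each well thinned to 1000 counts, was 2.14 over Cnga3-/- wells and 1.58 over wildtype wells. Counts may not be independent molecules, and all intervals given here are 95% exact intervals that cover counting error only. Where a plate had 0 counts, a value given as "at least" or "up to" sets that 0 to a floor of 3, which is not a 95% limit.

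Wells at the same position of the 2 plates resembled each other, and this touches every result below. The plates shared 60 positions with counts, of which 50 were kept in both. The other 20 kept Cnga3-/- wells and 2 kept wildtype wells had no kept partner. Profiles were compared on log2(CPM + 100), where CPM is counts scaled to the total of the well or library, after centring each of 1723 genes within its plate. Over the 50 pairs of wells at the same position, Pearson's r ran from 0.159 to 0.592 with a median of 0.362. Over the 3590 pairs at different positions it ran from -0.11 to 0.114 with a median of -0.00499. Each of the 50 Cnga3-/- wells had its highest correlation with the wildtype well at its own position, and the same held for each of the 50 wildtype wells. Depth followed position too, since total counts at the 50 positions had a Spearman rank correlation of 0.779 between plates. These are descriptions of wells that share a position, and what the pattern comes from was not tested.

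**Figure D1:**
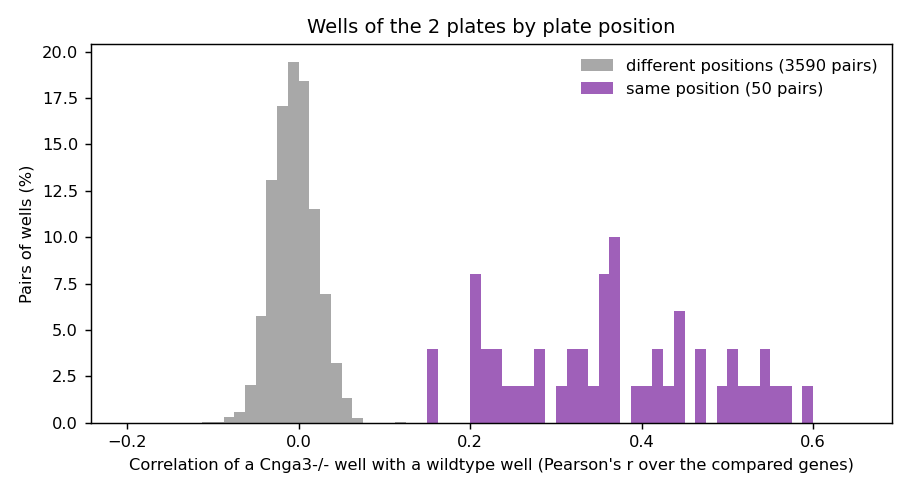
Histogram of Pearson's r (x axis) between each Cnga3-/- well and each wildtype well over the 1723 compared genes, as a percent of pairs (y axis), for 50 pairs at the same plate position (purple) and 3590 pairs at different positions (grey). The same-position pairs lie between 0.159 and 0.592 and do not overlap with the others, which reach 0.114.

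Single genes showed the same pattern. In the Cnga3-/- plate 768 genes had over 30% of their counts, and at least 20 counts, in 1 well. For 619 of them the wildtype plate had a kept well at that position, and in 611 of the 619 this was also the highest wildtype well of the gene. The main comparisons are therefore given over all kept wells and again over the 50 positions kept in both plates, an alternative chosen after the data were seen. Values with no mention of the shared positions are over all kept wells. The 50 positions held 263406 counts in Cnga3-/- and 268062 in wildtype. Over the 768 genes, counts in the highest Cnga3-/- well and in all other Cnga3-/- wells had a Spearman rank correlation of 0.778. Leaving out a gene's highest well, as the shared positions can do, is therefore not an independent check of its level.

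Cnga3, the deleted channel subunit (chromosome 1, 37214434 to 37263384, plus strand, in the GRCm38 annotation), had 13 counts in 8 of 70 Cnga3-/- wells and 22 counts in 8 of 52 wildtype wells. The highest well held 6 of the 13 counts and 13 of the 22. The log2 ratio of CPM, Cnga3-/- over wildtype, was -1.06 (-2.17 to -0.00), and -0.97 (-2.17 to 0.13) over the 50 shared positions. The table counts whole genes and the deleted part is not stated in the labels, so these counts do not check the genotype. Without the 5 deepest wells of each plate the log2 ratio was 0.38.

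Cone genes were sparse in both plates and more often counted in Cnga3-/- wells. The 4 cone genes taken as markers here, Opn1sw, Gnat2, Pde6h and Cnga3, summed to 152 counts in Cnga3-/- and 38 in wildtype, or 453 and 139 CPM. The ratio was 3.26 (2.27 to 4.78) (log2 ratio 1.70, interval 1.18 to 2.26). Without Opn1sw the log2 ratio was 0.93. Any of the 4 was counted in 52 of 70 Cnga3-/- wells (74.3%) and 14 of 52 wildtype wells (26.9%). With each well thinned to 1000 counts the shares were 31.4% (20.9 to 43.6) and 13.5% (5.59 to 25.8). The difference of 18.0 percentage points was also 18.0 at the 50 shared positions.

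Opn1sw, the short-wavelength opsin (chromosome 6, minus strand), had 63 counts in Cnga3-/- and 0 in wildtype. It was counted in 34 of 70 Cnga3-/- wells (48.6%), with 1 count in 23 of them and at most 7, and in 0 of 52 wildtype wells, which allows a share of up to 5.77% (exact upper limit 6.85%). With the wildtype library set to the floor of 3 counts, Opn1sw was at least 17.1-fold higher in Cnga3-/- (log2 4.10), and the exact lower limit of the log2 ratio was 3.75. At the 50 shared positions it had 53 counts against 0 and was higher in the Cnga3-/- well at 25 positions and lower at none, with the other 25 equal at 0. Its exons overlap those of Calu on the other strand, which had 60 counts in Cnga3-/- and 99 in wildtype, and whether counting used strand is not stated.

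The other 10 cone genes had few counts each. Gnat2, the alpha subunit of cone transducin, had 20 counts in 13 Cnga3-/- wells and 0 in wildtype, at least 5.43-fold higher against the floor (exact lower limit of the log2 ratio 2.01). Gngt2, its gamma subunit, had 22 counts in 19 wells and 0 in wildtype, at least 5.97-fold higher (exact lower limit 2.16). Gnb3, its beta subunit, had 30 counts in 19 wells against 1 count (log2 ratio 4.61, interval 2.02 to 9.96). All 3 transducin subunits were thus counted in Cnga3-/- wells and at 0 or 1 count in the wildtype plate. Pde6h had 56 counts in 28 of 70 wells (40.0%) against 16 counts in 9 of 52 wells (17.3%) (log2 ratio 1.51, interval 0.69 to 2.41). Opn1mw, the medium-wavelength opsin, had 17 counts against 4 (log2 ratio 1.79, interval 0.17 to 3.82). Cngb3, the partner of Cnga3 in the channel, had 6 counts against 0, and Pde6c had 5 against 0. Arr3, the cone arrestin that shuts off the opsin, had 5 against 3, and its interval ran from -1.92 to 3.13. Slc24a2, the cone sodium, calcium and potassium exchanger, had 31 against 23 counts (log2 ratio 0.13, interval -0.69 to 0.98). Of the 11 genes, 3 had enough counts (50 in both libraries together) to enter the comparison across genes (Opn1sw, Pde6h and Slc24a2), and Opn1sw and Pde6h were 2 of the 193 genes (11.2% of 1723) at least 2-fold higher. At the shared positions Gnat2 and Gngt2 each had 14 counts against 0, Gnb3 had 23 against 1, and Cngb3 and Pde6c each had 5 against 0. Pde6h had 46 against 16 there (log2 ratio 1.55, interval 0.70 to 2.47) and was higher at 21 positions and lower at 6. The log2 ratio of Opn1mw was 1.61 (-0.11 to 3.70), of Arr3 0.76 (-1.60 to 3.45) and of Slc24a2 0.26 (-0.60 to 1.13). Of the 3 compared cone genes the same 2 were at least 2-fold higher, where 5.91% of all genes were. Both Opn1sw and Pde6h entered the comparison through their share of Cnga3-/- wells alone, at both sets of wells. Their number beside that of all genes is therefore no support for a difference.

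**Figure D2:**
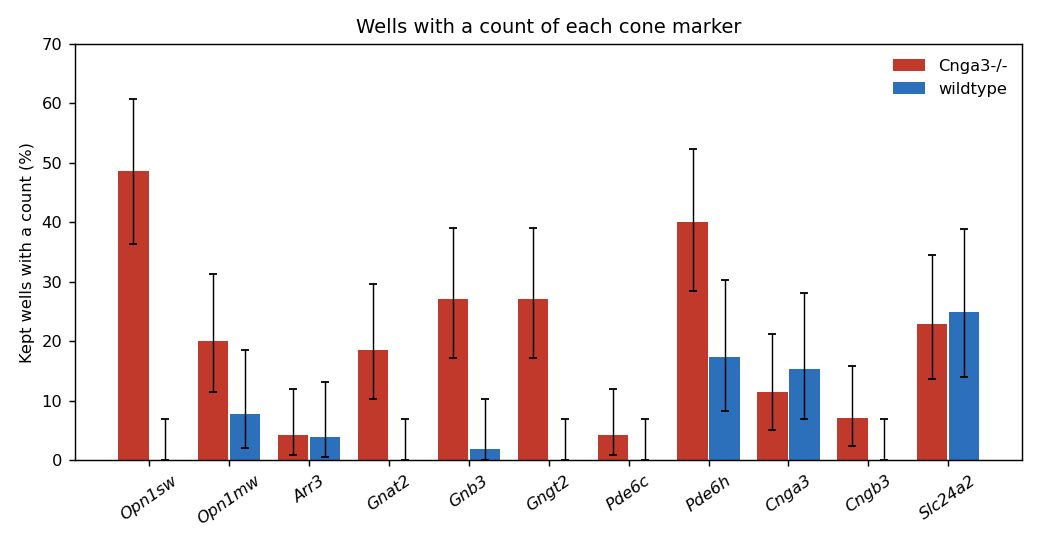
Percent of kept wells with a count (y axis) of each of 11 cone genes (x axis) in the Cnga3-/- plate (red, 70 wells) and the wildtype plate (blue, 52 wells), with exact Clopper-Pearson intervals. Opn1sw stands at 48.6% against 0 and Pde6h at 40.0% against 17.3%, while Cnga3 and Slc24a2 have overlapping intervals.

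Summed over the 11 cone genes, the plates held 268 and 69 counts (log2 ratio 1.66, interval 1.27 to 2.06). At the 50 shared positions the sum was 215 against 69 counts, again a log2 ratio of 1.66, and it was higher in the Cnga3-/- well at 38 positions, lower at 6 and equal at 6. In Cnga3-/- wells, 11 held no cone gene, 14 held 1, 18 held 2 and 27 held 3 or more. In wildtype wells the numbers were 30, 11, 7 and 4. Opn1sw was counted in 34 of all 70 Cnga3-/- wells (48.6%). It was counted in 16 of the 28 wells with Pde6h, 10 of the 13 with Gnat2 and 5 of the 14 with Opn1mw. Whether cone genes were counted together more often than their separate shares would give was not tested. Since 30 of 52 wildtype wells had no count of any cone gene, the label of cone could not be checked well by well, and the wells are named by their plate below.

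The promoters of Opn1sw and Gnat2 are shown because, of these 2 plates, both genes had counts in the Cnga3-/- plate alone. This was also so for Gngt2, Cngb3 and Pde6c, for which no RefSeq promoter was available here. Each is the 250 bases before the RefSeq start (GRCm38.p6), 5' to 3' on the strand of the gene. Opn1sw lies at chr6:29380514-29380763 (minus strand) and Gnat2 at chr3:108092816-108093065 (plus strand). Capitals mark AGGTCA, a hexamer bound by retinoid-related orphan receptors, or its reverse complement TGACCT in Opn1sw, and GGATTA, the reverse complement of the homeodomain core TAATCC of CRX and OTX2, in Gnat2.
Opn1sw: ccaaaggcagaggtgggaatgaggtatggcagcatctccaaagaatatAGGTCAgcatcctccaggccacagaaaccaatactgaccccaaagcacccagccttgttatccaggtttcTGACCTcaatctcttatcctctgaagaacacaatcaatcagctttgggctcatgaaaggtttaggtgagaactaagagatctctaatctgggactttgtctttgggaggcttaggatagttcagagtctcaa
Gnat2: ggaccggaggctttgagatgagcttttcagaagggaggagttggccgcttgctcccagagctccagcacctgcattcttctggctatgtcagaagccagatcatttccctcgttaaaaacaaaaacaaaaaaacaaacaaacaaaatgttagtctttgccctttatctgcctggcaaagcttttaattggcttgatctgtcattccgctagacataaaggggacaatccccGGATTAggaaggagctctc
AGGTCA begins at -202 and TGACCT at -132 of the Opn1sw start, and GGATTA at -19 of the Gnat2 start. Read on both strands, AGGTCA was in 14.0% of 32851 RefSeq promoters of this length, at least 2 copies were in 1.34%, and TAATCC was in 6.25%. No 2 of these matches overlap. Neither motif was in the promoters of Opn1mw, Arr3, Pde6h, Cnga3 or Slc24a2, and 7 of the 11 cone genes had a promoter in the table used. A match of letters is not a binding site.

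Rod genes were also higher in sum in Cnga3-/-, and markers of other cell types had few counts. Rod genes stood at 254 against 110 counts (log2 ratio 0.91, interval 0.58 to 1.25), and 1.00 at the shared positions. The rod phosphodiesterase subunit Pde6g had 50 counts in 28 wells against 1 count, and the rod transducin Gnat1 39 against 4. Pde6a had 34 against 42 and the rod factor Nrl 6 against 11. Of 3 rod genes in the comparison 1 was at least 2-fold higher, beside a background of 11.2%, and 0 of 2 were at the shared positions. Summed counts were 93 against 101 for horizontal cell markers, 51 against 30 for bipolar, 36 against 33 for amacrine, 14 against 17 for ganglion cell, 19 against 34 for Muller glia and 23 against 18 for astrocyte markers. They were 38 against 48 for endothelium and pericytes, 10 against 9 for microglia, 5 against 2 for pigment epithelium and 4 against 1 for erythrocytes. In both plates Onecut1 (horizontal), Sncg and Nefl (ganglion), Ttr (pigment epithelium) and the globins Hba-a2 and Hbb-bt were at 0. Per well, the summed rod genes ran from 0 to 12935 CPM in Cnga3-/- (median 554) and from 0 to 1805 in wildtype (median 199). The summed horizontal cell markers ran from 0 to 8346 CPM (median 80.1) and from 0 to 9044 (median 217). The other 9 marker lists had a median of 0 in both plates and reached at most 3504 CPM in Cnga3-/- and 1246 in wildtype. The part of other cells in the differences below was not tested.

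Across genes, 1723 reached 50 counts in both libraries together and were counted in 20% or more of the kept wells of one. A gene could thus enter through 1 plate alone, so the number of list members past 2-fold depends in part on this filter. Of these, 193 (11.2%) were higher in summed CPM in Cnga3-/- by 2-fold or more, 202 (11.7%) were lower by 2-fold or more and 1328 lay within 2-fold. The median log2 ratio was -0.32 (quartiles -0.70 and 0.23). The higher genes held 18.4% of all Cnga3-/- counts and 3.26% of wildtype counts, and the lower genes 3.41% and 8.53%. Of the higher genes 120 were over 4-fold apart and 49 had 5 or fewer wildtype counts, while 27 of the lower genes were over 4-fold apart. The split depended on scaling. With TMM factors 209 were higher and 157 lower with a median of -0.22, with median-of-ratios factors 261 and 81 with a median of -0.02, and without mitochondrial and the 20 most abundant genes 211 and 151.

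The higher genes were mostly genes whose highest Cnga3-/- well sat where the wildtype plate had no kept well. This was so for 161 of the 193 (83.4%) and for 221 of all 1723 genes. Among those 221 genes 72.9% were at least 2-fold higher, with a median log2 ratio of 1.89. Among the other 1502 genes 2.13% were, with a median of -0.43. The wells at positions E02, H04, F01 and D01 were the highest for 23, 17, 16 and 14 of the 161 genes. Rows A to D held 38 kept Cnga3-/- and 34 kept wildtype wells, and rows E to H held 32 and 18. Of the 202 lower genes 12 had their highest wildtype well at a position with no kept Cnga3-/- well, against 24 of all genes.

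At the 50 shared positions 1488 genes could be compared, of which 88 (5.91%) were 2-fold or more higher and 110 (7.39%) were 2-fold or more lower, with a median log2 ratio of -0.24. Taking the 193 higher genes whatever their remaining counts, 147 were still at least 2-fold higher there and 0 had turned. Of the 202 lower genes 124 were still at least 2-fold lower and 0 had turned. The split by position was also seen over the shared positions, which leave that well out. Of the 221 genes whose highest Cnga3-/- well was not among these positions, 52.0% were at least 2-fold higher over the 50 shared positions, with a median of 1.18. Of the other 1502 genes 2.93% were, with a median of -0.27.

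**Figure D3:**
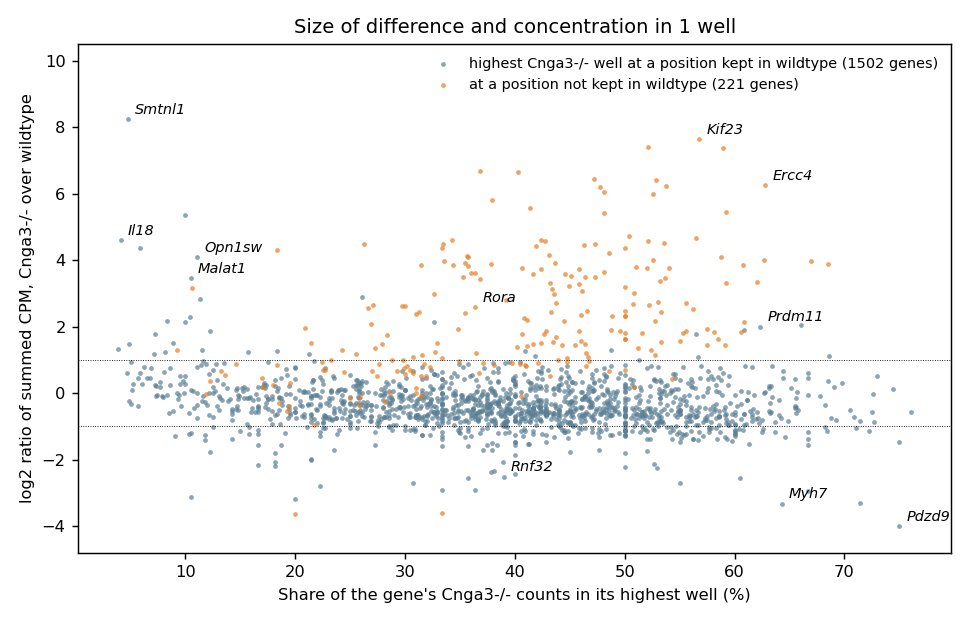
Each point is 1 of 1723 genes, by the percent of its Cnga3-/- counts in its highest well (x axis) and its log2 ratio of summed CPM, Cnga3-/- over wildtype (y axis); dotted lines mark 2-fold. The 221 genes whose highest Cnga3-/- well lies at a position not kept in wildtype (orange) have a median log2 ratio of 1.89 and the other 1502 (blue) of -0.43.

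The named genes are the 12 higher and 12 lower genes whose wells were most separated, measured as the percent of all pairs of 1 Cnga3-/- and 1 wildtype well in which the Cnga3-/- well had the higher CPM. Since they were chosen this way, the numbers of shared positions at which a named gene was higher or lower largely restate the choice. Of all 1723 genes 14 reached at least 90% and 8 at most 10%. Wells of the 2 plates did not overlap for 3 genes, Smtnl1, Kif23 and Il18, all higher in Cnga3-/-. Kif23, Il18 and Sin3a of the 12 higher genes and Myo6 of the 12 lower genes lie on chromosome 9. The share of all compared genes on that chromosome is not given here, so no grouping by chromosome is read from this.

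Smtnl1, a smoothelin-like protein of muscle (chromosome 2, 84811176 to 84822652), was at 4199 to 18376 CPM in Cnga3-/- wells, with a median of 8409. It was counted in 8 of 52 wildtype wells and reached 390 CPM there. The sums were 2952 and 8 counts, and the log2 ratio was 8.23 (7.25 to 9.44) over all wells and 8.22 at the shared positions. Il18, an inflammatory cytokine released after inflammasome activation (chromosome 9, 50554827 to 50581840), was at 15395 to 44092 CPM in Cnga3-/- wells (median 30740). In wildtype wells it ran from 0 to 2963 CPM (median 1106). The log2 ratio was 4.60 (4.44 to 4.76) from 10085 against 339 counts, and 4.60 at the shared positions. Both genes were even across the Cnga3-/- plate: the highest well held 4.78% of Smtnl1 counts and 4.12% of Il18 counts. Each was higher in the Cnga3-/- well at 50 of 50 shared positions, which follows from wells that do not overlap.

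Kif23, a kinesin of the central spindle in cytokinesis (chromosome 9, 61915905 to 61946774), had 6608 counts against 27. Cnga3-/- wells ran from 4402 to 339303 CPM with a median of 8729, and wildtype wells from 0 to 1054 with a median of 0. The well at F01, a position with no kept wildtype well, held 56.8% of its Cnga3-/- counts. The log2 ratio was 7.64 (7.10 to 8.24) over all wells and 6.51 (5.96 to 7.13) at the shared positions. Kif23 was higher at 50 of 50 of these, which again follows from wells that do not overlap. So 1 well made up most of the Kif23 sum, while each other Cnga3-/- well also lay above each wildtype well.

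Vwa3b had 3374 against 509 counts, with medians of 7351 and 1726 CPM. It lies near the deleted gene, at 37026596 to 37187613 of chromosome 1, with Cnga3 at 37214434 to 37263384 on the same strand. Its highest Cnga3-/- well (H02, 252390 CPM) held 31.3% of the counts, and the log2 ratio was 2.43 over all wells and 1.91 (1.77 to 2.06) at the shared positions. Themis3 had 821 against 12 counts (medians 1556 and 0 CPM), with log2 ratios of 5.80 and 5.14. Olfr410, an olfactory receptor, had 246 against 2 counts (medians 443 and 0), with log2 ratios of 6.65 and 5.85. Both Themis3 and Olfr410 had their highest well at G02. At the shared positions Vwa3b was higher at 50 of 50, Themis3 at 47 and Olfr410 at 41.

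A group of 4 genes had the highest Cnga3-/- well at E02, which has no kept wildtype well. They were Ercc4, a nuclease of nucleotide excision repair, Sin3a, the scaffold of a histone deacetylase complex, Msrb3, a methionine sulfoxide reductase, and Dchs2, a protocadherin of the dachsous type. E02 held 62.8% of Ercc4, 26.3% of Sin3a, 33.4% of Msrb3 and 37.8% of Dchs2 counts. Over all wells Ercc4 had 841 against 9 counts (log2 ratio 6.25, interval 5.32 to 7.38), which was 4.87 at the shared positions. Sin3a had 441 against 16 counts and 4.49, then 3.997. Msrb3 had 386 against 14 and 4.49, then 3.89. Dchs2 had 328 against 18 and 3.89, then 3.29. Outside E02 the 4 genes were thus still higher, at 48, 45, 47 and 47 of 50 shared positions. Sin3a and Dchs2 overlap genes on the other strand.

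Over all wells, 2 of the 12 genes had the smallest log2 ratios. Zfp277 had 1034 against 325 counts (medians 2176 and 1117 CPM), and its highest well, A11, held 27.3%. Its log2 ratio was 1.37 (1.19 to 1.56) over all wells and 0.91 (0.71 to 1.11) at the shared positions, which is under 2-fold. Prdm11, a PR-domain protein, had 2172 against 442 counts, with medians of 2396 and 761 CPM. Its highest well was B07 in both plates, with 62.3% of Cnga3-/- and 49.5% of wildtype counts. The log2 ratio was 2.00 (1.85 to 2.15) and at the shared positions 2.24 (2.09 to 2.39).

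**Figure D4:**
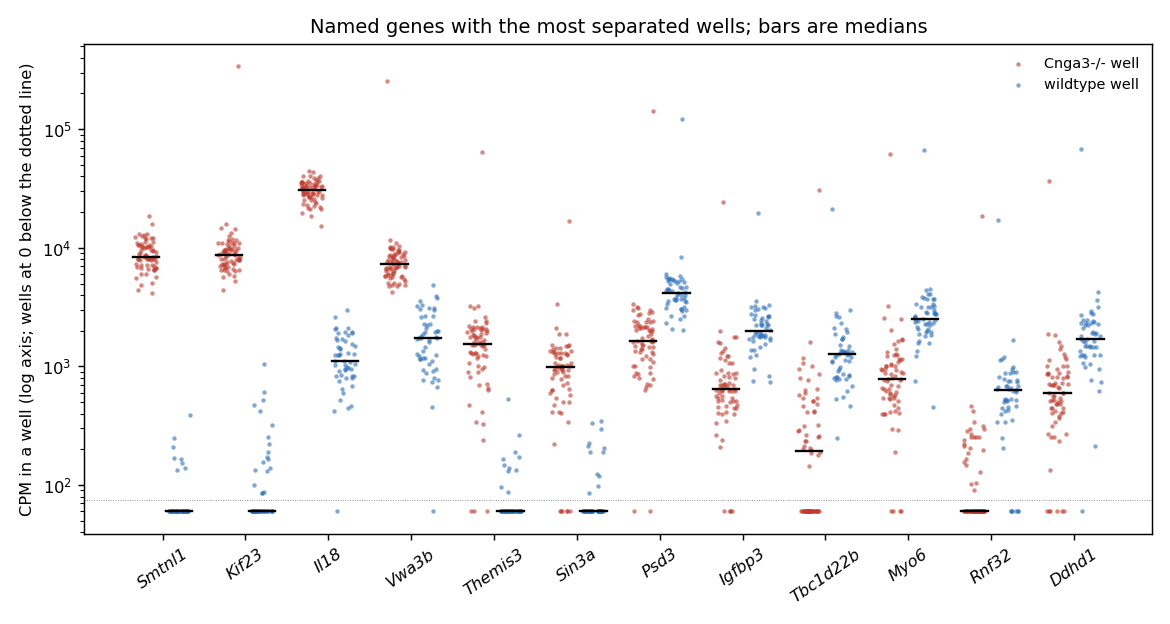
CPM of 6 higher and 6 lower named genes (x axis) in each Cnga3-/- well (red) and each wildtype well (blue) on a log axis, with wells at 0 drawn below the dotted line and black bars at the medians. Smtnl1, Kif23 and Il18 wells do not overlap between plates, and most genes have 1 well far above the rest, such as the Kif23 well at 339303 CPM.

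The 12 lower genes had log2 ratios from -2.51 to -1.04, against 1.37 to 8.23 for the 12 higher genes, and the highest well of each lower gene lay at the same position in both plates. This was common among all genes. It held for 1292 (86.0%) of the 1502 genes whose highest Cnga3-/- well lay at a position kept in wildtype. Myo6, the myosin that moves towards the minus end of actin filaments (chromosome 9), had 647 counts in Cnga3-/- and 1357 in wildtype. Its wells ran from 0 to 61707 CPM (median 781) and from 455 to 66179 (median 2518). The highest well was D08 in both plates, with 59.4% and 48.6% of the counts. The log2 ratio was -1.37 (-1.50 to -1.23) over all wells and -1.15 (-1.29 to -1.01) at the shared positions, and the Cnga3-/- well was lower at 45 of 50.

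Psd3, an exchange factor for ARF6, ran from 0 to 141358 CPM in Cnga3-/- wells (median 1650) and from 2045 to 122558 in wildtype wells (median 4200). Its 787 against 1321 counts gave -1.04 (-1.17 to -0.92) as log2 ratio, and -0.96 at the shared positions, where it was lower at 49 of 50. Igfbp3, a carrier of insulin-like growth factors, had 367 against 743 counts and medians of 642 and 1986 CPM. Its log2 ratio was -1.31 (-1.50 to -1.13), then -1.16, and it was lower at 49 of 50 positions. Wells overlapped between plates for both genes. Over all pairs of wells from the shared positions, the Cnga3-/- well was the higher one in 4.52% for Psd3 and 6.24% for Igfbp3. Both genes were chosen for such separation, so the 49 of 50 positions add little to it.

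Rnf32, a RING finger protein, was the furthest apart of the 12 in summed CPM. It was counted in 26 of 70 Cnga3-/- wells and 46 of 52 wildtype wells, with 59 against 274 counts. The log2 ratio was -2.51 (-2.94 to -2.10), and -2.41 (-2.88 to -1.97) at the shared positions. It was -1.38 as the mean CPM over wells, -0.83 with wells thinned to 1000 counts and -3.16 with the stricter well filter of at least 1000 genes. Tbc1d22b, a TBC-domain protein of the Rab regulator family, was counted in 39 and 52 wells, with 172 against 453 counts and log2 ratios of -1.69 and -1.50. Zfp936, a zinc finger protein, was counted in 24 and 44 wells, with 89 against 188 counts and log2 ratios of -1.38 and -1.20.

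Fermt1, an integrin activator, had 285 against 514 counts and log2 ratios of -1.15 over all wells and -1.02 at the shared positions. Ddhd1, a phospholipase, had 469 against 899 counts and log2 ratios of -1.24 and -1.06. The mitochondrial genes Mrpl12, a ribosomal protein, and Supv3l1, an RNA helicase, had log2 ratios of -1.08 and -1.26, then -0.96 and -1.07. The olfactory receptors Olfr111 and Olfr66 had -1.08 and -1.10, then -0.83 and -0.88. All 12 were below the median of all genes at both sets of wells, which over all wells was fixed by their choice as at least 2-fold lower. Besides Psd3 and Igfbp3, 4 of them were lower at 46 to 48 of the 50 shared positions. For Psd3, Mrpl12, Olfr111 and Olfr66 the lower level was under 2-fold at the shared positions. Tbc1d22b, Ddhd1, Mrpl12, Supv3l1 and Psd3 overlap genes on the other strand.

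A smaller set of 32 higher genes had the highest Cnga3-/- well at a position that was kept in wildtype. In 20 of the 32 the highest well held under 20% of the gene's Cnga3-/- counts. Beside Smtnl1, Il18, Opn1sw and Pde6h, these included Malat1, a nuclear long noncoding RNA, with 295 counts in 55 of 70 wells against 22 in 13 of 52. Its log2 ratio was 3.45 (2.82 to 4.14), and 3.63 (2.98 to 4.34) at the shared positions, where it was higher at 40 and lower at 6. Pde6g had a log2 ratio of 5.35 (2.80 to 10.68), and 5.23 at the shared positions. Ccna1, a cyclin of germ cells, had 51 against 2 counts, and Parn, a poly(A) ribonuclease, 88 against 10. Retreg1, a receptor for turnover of the endoplasmic reticulum, had 72 against 13, and the ribosomal protein gene Rps19 48 against 8. Nmnat2, an axonal enzyme of NAD synthesis, had 289 against 97 counts and was higher at 37 of 50 shared positions. An unnamed transcript, 7420701I03Rik, had 12307 against 4021 counts (log2 ratio 1.32), and was higher at 50 of 50. The transducin subunit Gnb1, shared by rods and other cells, had 46 against 5, with 26.1% of its counts in 1 well. Malat1 and Ccna1 overlap genes on the other strand. These genes were chosen for description after their values were seen.

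Photoreceptor transcription factors summed to 663 against 158 counts (log2 ratio 1.77, interval 1.52 to 2.03), and 1.27 at the shared positions. Most of the counts were of Rora, a retinoid-related orphan nuclear receptor, with 440 counts in 65 wells against 60 in 35. Its log2 ratio was 2.58 (2.19 to 2.99), and 36.4% of its Cnga3-/- counts lay in 1 well at a position not kept in wildtype. At the shared positions Rora had 214 against 59 counts (log2 ratio 1.88, interval 1.46 to 2.33), higher at 45 and lower at 5. Samd7, a photoreceptor repressor of Polycomb type, had 63 against 10 counts and log2 ratios of 2.36 and 1.35. Crx, the homeodomain activator of photoreceptor genes, had 17 counts against 0, Thrb, the thyroid hormone receptor of cones, 23 against 6, and Neurod1, a neuronal differentiation factor, 13 against 1. Both members in the comparison, Rora and Samd7, were at least 2-fold higher, where 11.2% of all genes were. With 10 wildtype counts, Samd7 could enter only through its share of Cnga3-/- wells. Rora was the 1 member compared at the shared positions. Without Rora the list had a log2 ratio of 0.89.

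Genes of phototransduction and the outer segment that cones share with rods were uneven. Their sum was 851 against 797 counts (log2 ratio -0.20, interval -0.34 to -0.06), and 0.40 without Abca4, the retinoid transporter of the disc rim, which had 359 against 493. The sign of the sum also turned under other settings. Of 6 members in the comparison 1 was at least 2-fold higher (11.2% of all genes were), Rpgrip1, a protein of the connecting cilium, at 68 against 20 counts, with a log2 ratio of 1.47 and 1.03 at the shared positions. Rdh12, a retinal reductase, was lowest with 64 against 104 counts, just within 2-fold. Several members with few counts had them almost all in Cnga3-/- wells: Rgs9, which speeds transducin shut-off, at 28 against 0, Cdhr1 at 27 against 1, Prph2 at 18 against 2, and recoverin (Rcvrn) and phosducin (Pdc) at 15 against 0 each.

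Genes of calcium and cGMP handling summed to 884 against 877 counts (log2 ratio -0.29, interval -0.42 to -0.15) that lay near the median of all genes and turned sign in at least 1 setting. Of 7 in the comparison 1 was at least 2-fold higher and 1 lower, against 11.2% and 11.7% of all genes, and 0 of 5 were 2-fold apart at the shared positions. Itpr1, the inositol trisphosphate receptor, was lowest, with 89 against 150 counts and log2 ratios of -1.05 and -0.82. Ribbon synapse genes summed to 646 against 431 (log2 ratio 0.29, interval 0.11 to 0.47), and 0.29 at the shared positions. None of 5 was 2-fold apart, from Rims1 at -0.64 to Bsn, the active zone scaffold bassoon, at 0.68.

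Genes of nuclear movement and migration had summed log2 ratios from -0.32 to 0.03. Median log2 ratios of the compared members were 0.27 for motors, -0.14 for the nuclear envelope and -0.42 for guidance, beside -0.32 over all genes. Microtubule motors and nuclear migration genes summed to 789 against 630 counts (log2 ratio 0.03, interval -0.13 to 0.18), and 0.02 at the shared positions. Of 6 in the comparison 1 was at least 2-fold higher (beside 11.2% of all genes), the dynein heavy chain Dync1h1, with 73 against 21 counts (log2 ratio 1.50). At the shared positions it was 0.88 (0.08 to 1.72), under 2-fold. Klc1, a kinesin light chain, was lowest at -0.54. Nuclear envelope and LINC complex genes, which couple the nucleus to the cytoskeleton, summed to 189 against 160 counts (log2 ratio -0.06, interval -0.37 to 0.26), with lamin B1 (Lmnb1) at 0.21 and nesprin-1 (Syne1) at -0.50, and the sign of the sum turned in at least 1 setting. Sun1 and Sun2 had 5 against 2 and 1 against 6 counts, too few for a comparison. Migration and guidance genes summed to 817 against 828 (log2 ratio -0.32, interval -0.46 to -0.18). None of the 6 compared members of this list was 2-fold apart, from the semaphorin Sema6d at -0.82 to the cadherin Cdh4 at 0.55.

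Nuclear genes of oxidative phosphorylation and cytosolic ribosomal proteins were higher in sum at both sets of wells. Oxidative phosphorylation summed to 593 against 264 counts (log2 ratio 0.87, interval 0.66 to 1.09), and 0.90 at the shared positions, where it was higher at 41 and lower at 8. Of its 74 genes 1 entered the comparison, Uqcrh, at 0.18, and without Uqcrh the log2 ratio of the others was 1.22. Among them Atp5b had 34 against 11 counts, Cox6c 21 against 2 and Atp5k 17 against 0. Ribosomal protein genes summed to 632 against 288 (log2 ratio 0.84, interval 0.63 to 1.04), and 0.94 at the shared positions, higher at 37 and lower at 13. Of 4 compared, Rps19 was at least 2-fold higher (beside 11.2% of all genes) and Rpl5 was lowest, at -0.59.

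In 4 lists whose sum was at least 2-fold apart, the log2 ratio changed sign without a single named gene. Mitosis and cytokinesis genes had a log2 ratio of 3.94 with Kif23 and -0.40 without it, with Ttk at 70 against 88 counts and Nuf2 at -0.94. Inflammasome and innate immune genes had 3.88 with Il18 and -0.07 without it. There, Il1b, another cytokine of the inflammasome, had 47 against 14 counts (log2 ratio 1.45) that was 0.03 at the shared positions, and Myd88, an adaptor of Toll-like receptors, was at -0.13. The Il18 receptor subunits Il18r1 and Il18rap had 5 against 6 and 11 against 11 counts. Muscle contractile genes had 1.28 with Smtnl1 and -0.53 without it. Their lowest compared member was Myh7, the slow myosin heavy chain, counted in 5 Cnga3-/- and 34 wildtype wells, with 14 against 114 counts. Its log2 ratio was -3.32 (-4.24 to -2.52), and -3.20 at the shared positions. Kinesins as a family had 3.82 with Kif23 and -0.08 without it. DNA repair genes had 0.43 over all wells and 0.09 at the shared positions, with Ercc4 highest and Parp1, the poly-ADP-ribose polymerase, lowest at 441 against 673 counts (log2 ratio -0.91).

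**Figure D5:**
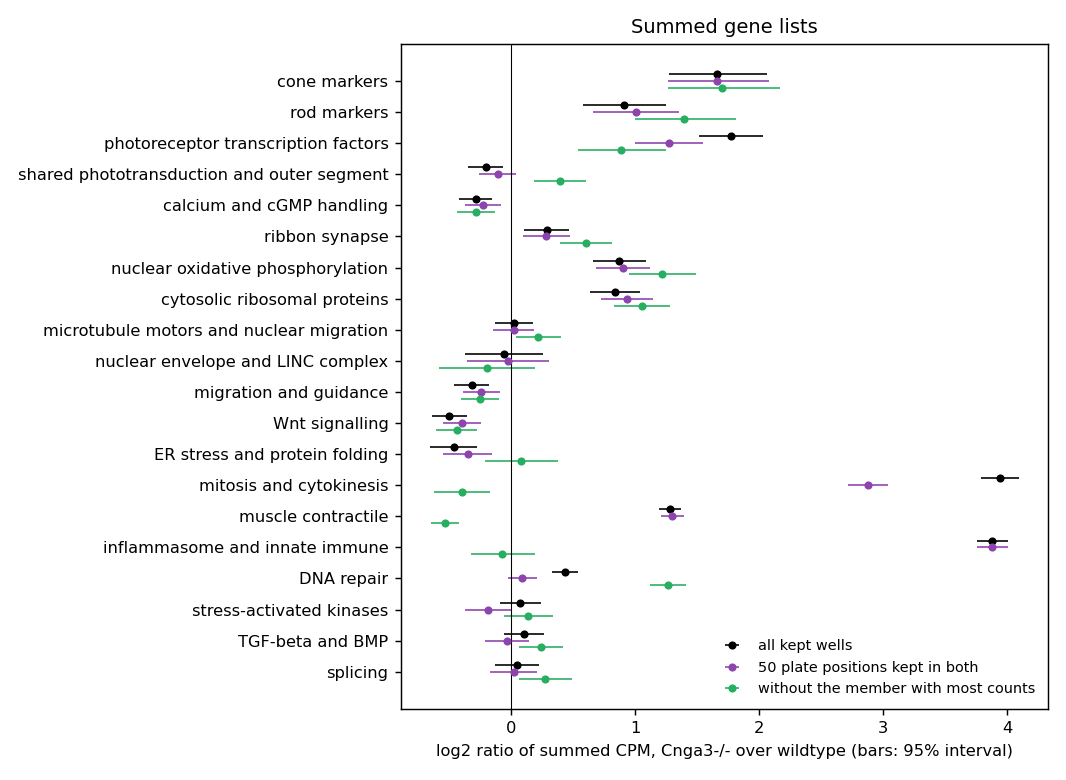
log2 ratio of summed CPM, Cnga3-/- over wildtype (x axis), for 20 gene lists (y axis), with 95% counting intervals, over all kept wells (black), over the 50 shared plate positions (purple) and without the member with most counts (green). Mitosis, muscle and inflammasome lists cross 0 without 1 gene, while the cone list stays at 1.66 at the shared positions.

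Sums that were lower in Cnga3-/- were mostly small. Wnt signalling genes summed to 751 against 863 counts (log2 ratio -0.50, interval -0.64 to -0.35), and -0.39 at the shared positions. Of 9 compared 1 was at least 2-fold lower, near the 11.7% of all genes, the ligand Wnt16, with 20 counts in 10 wells against 105 in 34 (log2 ratio -2.69, interval -3.46 to -1.99) and of -2.59 at the shared positions. Gsk3b, the kinase that marks beta-catenin for breakdown, was highest at 0.58. Genes of stress in the endoplasmic reticulum had a log2 ratio of -0.46 (-0.65 to -0.27), and 0.08 without Creld2, which had 221 against 325 counts, with Herpud1 highest at 0.81. Clustered protocadherins, cell adhesion proteins, summed to 10814 against 11144 counts (log2 ratio -0.34), near the median of all genes. At the shared positions this was -0.32 and the sum was lower in the Cnga3-/- well at 50 of 50. Without Pcdhb13, the member with most counts, the log2 ratio over all wells was -0.15 (-0.21 to -0.09). The 6 compared members ran from Pcdhb15 at -0.81 to Pcdhb16 at -0.11.

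Myosins summed to 1348 against 1955 counts (log2 ratio -0.83, interval -0.93 to -0.73), and -0.07 without Myo6. Of 8 compared, 2 were at least 2-fold higher and 2 lower, against 11.2% and 11.7% of all genes. Over the 50 positions 0 and 2 were, against 5.91% and 7.39%. Myo15b at 113 against 25 counts and Myo1g at 107 against 33 had log2 ratios of 1.88 and 1.40 over all wells and 0.97 and 0.70 at the shared positions. Myh7 and Myo6 were at least 2-fold lower at both sets. Chemosensory receptors, which serve smell and are not known as genes of the retina, were among the compared genes too. Of 25 olfactory receptors 5 were at least 2-fold higher and 6 lower, from Olfr410 at 6.65 to Olfr95 at -3.62, against 11.2% and 11.7% of all genes. Over the 50 positions 1 of 19 was higher and 1 lower. Of 7 vomeronasal receptors 0 were higher and 4 lower, with a summed log2 ratio of -0.73 (-0.88 to -0.58). Of 6 compared at the shared positions 0 were higher and 3 lower, with a summed log2 ratio of -0.63, and over all wells Vmn1r74 was lowest at 10 against 74 counts.

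The plate of Pde6ccpfl1 wells, a line with a mutated cone phosphodiesterase that was prepared in the same way, gives another set of levels for the named genes. Both mutant plates would be set against the same wildtype plate, so levels are given side by side only. Over 61 kept wells Smtnl1 stood at 27440 CPM in Pde6ccpfl1, 8799 in Cnga3-/- and 29.3 in wildtype. Il18 stood at 7359, 30060 and 1241 CPM in the same order, Kif23 at 30531, 19696 and 98.9, and Vwa3b at 8068, 10057 and 1864. Among the lower genes, Myo6 stood at 2532, 1928 and 4969 CPM, Igfbp3 at 1515, 1094 and 2721, and Rnf32 at 61.0, 176 and 1003. Opn1sw had 27 counts there in 32.8% of wells. For 11 of the 12 lower named genes the highest well was at the same position in all 3 plates. The share of all genes with such a match in 3 plates is not given here. Between the Cnga3-/- and wildtype plates it was 86.0% of the 1502 genes described above. Many higher named genes also had their highest well at 1 position in both mutant plates. These were Kif23 (F01), Vwa3b (H02), Themis3 and Olfr410 (G02), Prdm11 (B07), and Sin3a, Ercc4, Msrb3 and Dchs2 (E02). Smtnl1, Il18 and Zfp277 did not. The share of all genes that match between the mutant plates is not given here either, so neither match is read as particular to the named genes. The levels of the 2 mutant plates are thus not independent of plate position.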

How the data were processed

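Per the labels, cells were sorted into 1 plate per line, and libraries combined steps of SMARTseq2 and MARS-seq. The authors deposited raw counts per gene and well (31053 genes, 208 wells). featureCounts and the build GRCh38 are named per the submitters' processing notes. That build is human, while 98.3% of the symbols are in the GENCODE mouse annotation of GRCm38, which was used for positions and overlaps. The aligner, the strand setting and whether molecular identifiers were used are not given in the sources used here. Doublets were not called, as the sort aimed at 1 cell per well.

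Counts of kept wells were summed per library and scaled to CPM. Ratios have exact intervals conditional on the total count, and a library at 0 was set to a floor of 3 counts. Shares of wells have Clopper-Pearson intervals. With 1 library per genotype no test was made. The members, the 29 gene lists and 18 families by symbol prefix were chosen with earlier results of these data known. Named genes were the 12 higher and 12 lower genes with the most separated wells among compared genes at least 2-fold apart in sum with the same direction in the mean over wells. The ranking took no predicted gene, pseudogene or gene of the mitochondrial genome. Cone genes and the highest and lowest compared member of each list described were also named, with 1 exception that is not reported here. Scripts used Python 3.11.15, scipy 1.17.1, pandas 2.3.3, R 4.3.3 and edgeR 4.0.16 (for TMM factors only) and were tested on simulated data. Alternatives were other well filters, scalings, count filters, thinning and leaving out the deepest wells. The 50 shared plate positions and lists without their top member were added after the data were seen.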

Additional observations from a re-analysis of the deposited data

How the results depend on the processing

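All values are limited by 1 plate per genotype and by low counts per well. Over 10 settings, the reported one and the shared positions among them, all 24 named genes kept their direction and 13 stayed past 2-fold. These genes were chosen for 2-fold in the reported setting, the same direction in the mean over wells and separated wells. Their kept direction was thus largely fixed by the choice and is no independent check. The log2 ratio of the 4 cone markers was 0.93 without Opn1sw. The difference in the share of wells with a marker was 37.1 percentage points with the stricter well filter (1000 genes, 15% mitochondrial counts) and 47.4 without thinning, against 18.0. The number of genes at least 2-fold higher, 193, was 35 with thinning, 88 at the shared positions, 2267 with no count filter and 35 with at least 200 counts. The number lower, 202, was 37, 110, 2081 and 35 under the same settings, and 81 with median-of-ratios factors. Fewer genes were compared under thinning (244), at the shared positions (1488) and with at least 200 counts (330), and more with no count filter (11483). Without the member with most counts, log2 ratios turned to -0.40 for mitosis and cytokinesis, -0.53 for muscle contractile, -0.0684 for inflammasome and innate immune and -0.0844 for kinesins. Cnga3 turned to 0.38 without the 5 deepest wells of each library. With each gene's highest well of each plate left out, 159 of the 193 higher genes and 186 of the 202 lower genes stayed past 2-fold and 0 turned, but in all 173 genes were then higher and 345 lower, with a median log2 ratio of -0.42. No paired analysis was possible because each genotype has 1 library and the labels give no replicate number; wells set side by side by plate position are descriptions.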

Other observations

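Single genes led single wells in both plates. In 11 of 70 Cnga3-/- wells and 7 of 52 wildtype wells 1 gene held at least 10% of the counts, a different gene in each of these wells of a plate. The highest share was 33.9% for Kif23 in Cnga3-/- and 18.0% for Add2 in wildtype. The median share of the leading gene was 4.91% and 3.61%. Of the 1723 compared genes 18 had a count in every kept well of both plates.

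Histone genes summed to 105 against 52 counts (log2 ratio 0.72, interval 0.22 to 1.23), and 0.64 at the shared positions. Keratins summed to 456 against 520 (log2 ratio -0.49, interval -0.67 to -0.30), and -0.34 at the shared positions, where the Cnga3-/- well was lower at 38 of 50. Zinc finger genes had 0.18 over all wells and -0.03 at the shared positions, and solute carriers 0.01 and 0.05. Mitochondrially encoded genes summed to 215 against 186 counts (log2 ratio -0.09, interval -0.38 to 0.20), with either sign across settings.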
